A study of Mus musculus with 6 samples.

Results

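Cajal-Retzius cells are early-born, mostly transient neurons of the cortical marginal zone and of the outer rim of the hippocampus, where they line the hippocampal fissure around birth. Many of them are born in the cortical hem, a signalling centre at the edge of the hippocampal primordium that releases WNT and BMP proteins. They secrete reelin, a large glycoprotein of the extracellular matrix that binds the receptors VLDLR and ApoER2 (gene *Lrp8*) on migrating neurons, which leads to phosphorylation of the adaptor DAB1 by kinases of the SRC family and guides the layering of cortex and hippocampus. The 8 genes described here were chosen by name because they are known to be expressed in these cells: *Reln* itself, the transcription factors *Trp73*, *Lhx1*, *Lhx5*, *Ebf3* and *Nhlh2*, the secreted factor *Ndnf* and the calcium-binding protein gene *Calb2*. Their values were not a criterion of the choice, but earlier results of these data were known when it was made. All 8 were detected in all 6 libraries and passed the filter on low counts, among 16745 genes tested and 29469 genes with any count. None of the 8 is restricted to Cajal-Retzius cells in the brain as a whole: *Reln*, *Ndnf* and *Calb2* are also made by inhibitory interneurons, and *Calb2* also by immature granule cells of the dentate gyrus.

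The RNA came from hippocampi of newborn (P0) mice, at least 2 pups pooled in each library, in 3 *Mov10* Deletion and 3 WT libraries. MOV10 is an RNA helicase that acts with AGO2 in microRNA-mediated silencing, and the study also describes it as shielding some mRNAs from AGO2. A *Mov10* Deletion mouse carried *Mov10* with loxP-flanked exons together with *Emx1*-Cre, which is active in the excitatory neuron lineage of neocortex and hippocampus, and the cross with the *Mov10* heterozygous mutant added a mutant allele that is present in all cells. The WT mice of the study were C57BL/6, and no group carried *Emx1*-Cre alone, so that an effect of Cre cannot be told apart from one of *Mov10*. The labels give neither the sex nor the litter of the pups, and nothing says that the libraries of a group came from separate litters. The p-values therefore measure the spread between these libraries. In the main fit this is the spread left after 2 factors, estimated from the differences between replicates, were taken out.

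*Mov10* (chr3:104702140-104725879) fell by 1.11 on the log2 scale (SE 0.10, limma, adjusted p = 0.00115), from 4.79 ± 0.03 CPM (counts scaled to the size of each library, SD, n = 3) in WT to 2.22 ± 0.20 CPM in *Mov10* Deletion, and its call held under 19 of 19 alternative analyses. The libraries held 71400300 to 86207971 estimated counts. One library stood apart: in *Mov10* Deletion replicate 1 the 10 choroid plexus markers summed to 58.5 CPM against 8.33 to 22.6 CPM in the other libraries, and the 12 meningeal fibroblast markers to 341 CPM against 135 to 185 CPM. Every gene-level difference of the 8 genes whose direction or call changes without that library is given both ways.

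Per unit of transcript length, *Reln* was the most abundant of the 8, at 412 TPM (transcript abundance scaled for length, summing to the same total in each library) on average over the 6 libraries, with a range of 371 to 455 TPM. *Calb2* followed at 235 TPM (213 to 267 TPM), then *Nhlh2* at 91.9 TPM (84.5 to 100.5 TPM), *Ndnf* at 66.2 TPM (56.2 to 78.0 TPM) and *Trp73* at 31.4 TPM (28.6 to 35.3 TPM). The 3 least abundant were all homeodomain or helix-loop-helix transcription factors: *Ebf3* at 14.7 TPM (12.9 to 16.6 TPM), *Lhx5* at 13.7 TPM (12.2 to 15.2 TPM) and *Lhx1* at 8.28 TPM (7.01 to 8.96 TPM). The ranges of *Ebf3* and *Lhx5* overlapped, and every other pair of neighbours in this order was separated in the 6 libraries. The 8 genes rested on between 1030 estimated counts (*Lhx1* in *Mov10* Deletion replicate 1) and 155610 (*Reln* in WT replicate 1). By mean CPM, *Reln* stood at percentile 99.9 of the genes tested and *Lhx1* at percentile 45.2.

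Of the 8 genes, 1 (*Calb2*) passed the test as higher in *Mov10* Deletion and 0 as lower, where 24.7% of all genes tested passed in either direction, 12.6% as higher and 12.1% as lower. A call means an adjusted p under 0.05 in limma after Benjamini-Hochberg adjustment over all 16745 genes, with 2 factors of unwanted variation, estimated from the differences between replicates, in the fit. Without those factors 21% of all genes passed, and of the 8 again *Calb2* alone. The median difference of the 8 genes was -0.04 on the log2 scale, beside 0.0056 over all genes tested. The other 7 had log2 differences between -0.12 and 0.06, and CPM values that overlapped between the groups. Among all genes tested, 41.6% had groups that did not overlap, 20.4% with *Mov10* Deletion higher and 21.2% with it lower.

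**Figure D1:**
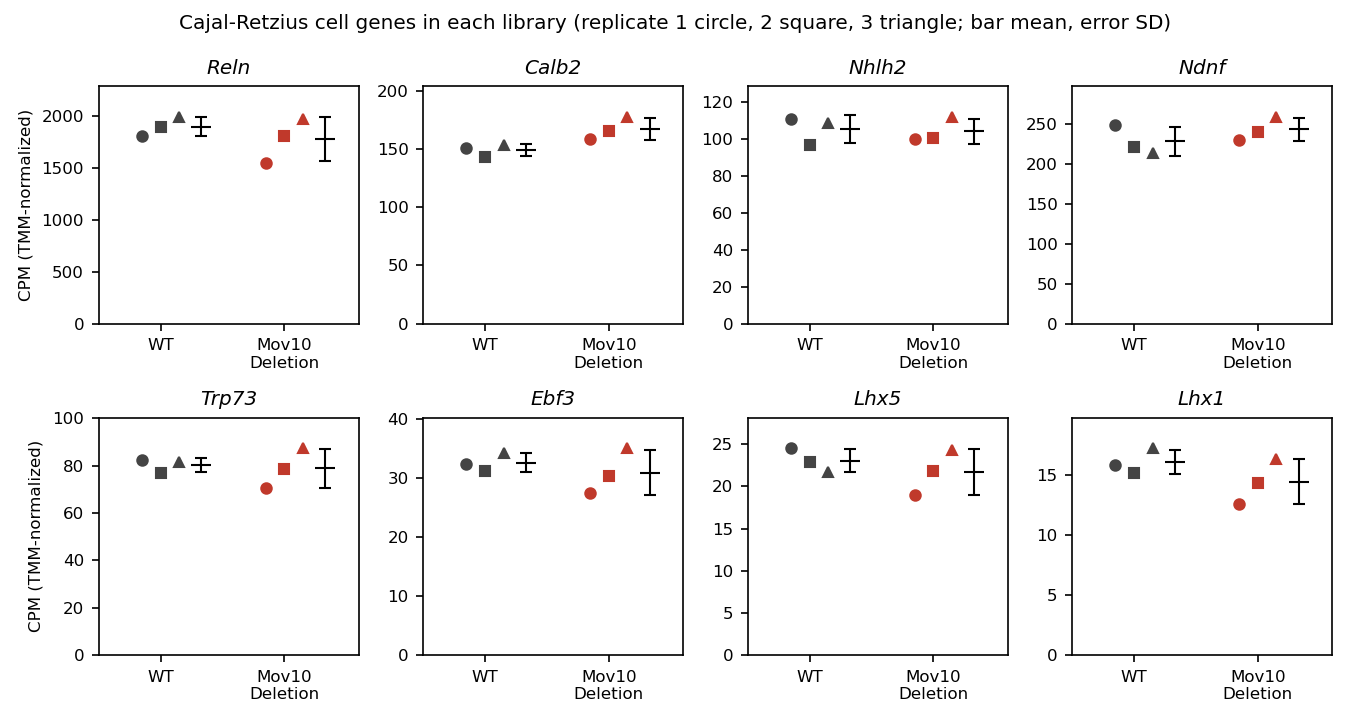
TMM-normalized CPM of the 8 Cajal-Retzius cell genes in each library (y axis, starting at 0; circle, square and triangle are replicates 1, 2 and 3), with the group mean and SD as bars, n = 3 per group. The *Calb2* values of *Mov10* Deletion lie between 159 and 177 CPM, all above the WT values, and for the other 7 genes the groups overlap.

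*Reln* (ENSMUSG00000042453.15, chr5:22089452-22549700, minus strand, GRCm39) read 1548, 1807 and 1968 CPM in *Mov10* Deletion replicates 1, 2 and 3 and 1807, 1893 and 1988 CPM in WT. Replicate 1 of *Mov10* Deletion was the lowest of the 6, and the other *Mov10* Deletion libraries lay within the WT range. The group means were 1775 ± 212 CPM and 1896 ± 90.3 CPM (SD, n = 3), and the fitted difference was -0.06 on the log2 scale (SE 0.06, 95% interval -0.20 to 0.07, limma, adjusted p = 0.450). In whole hippocampus, a change in the number of Cajal-Retzius cells and a change in RNA per cell cannot be told apart. Leaving out *Mov10* Deletion replicate 1 turned the difference to 0.02 (adjusted p = 0.646), while leaving out *Mov10* Deletion replicate 3 gave -0.13 and a call (adjusted p = 0.0139), so single libraries decided the direction and the call.

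*Trp73* (ENSMUSG00000029026.18, chr4:154140706-154224665, minus strand) encodes p73, a transcription factor of the p53 family on which Cajal-Retzius cells depend. Its level was 70.6, 78.7 and 87.2 CPM in *Mov10* Deletion and 82.2, 76.9 and 81.5 CPM in WT. The *Mov10* Deletion libraries held both the lowest and the highest value, around means of 78.8 ± 8.30 and 80.2 ± 2.88 CPM. The fitted difference was -0.02 (SE 0.06, 95% interval -0.15 to 0.12, adjusted p = 0.839), and 0.05 without *Mov10* Deletion replicate 1.

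*Lhx5* (ENSMUSG00000029595.11, chr5:120569764-120579292, plus strand) and *Lhx1* (ENSMUSG00000018698.17, chr11:84408803-84416368, minus strand) encode LIM-homeodomain factors, and *Lhx5* also acts in the patterning of the cortical hem. *Lhx5* read 19.0, 21.8 and 24.4 CPM in *Mov10* Deletion and 24.5, 22.9 and 21.8 CPM in WT. *Lhx1* read 12.6, 14.3 and 16.4 CPM in *Mov10* Deletion and 15.8, 15.2 and 17.2 CPM in WT. These carried the lowest 2 estimates of the 8 genes, both with overlapping groups: -0.11 for *Lhx5* (SE 0.07, 95% interval -0.27 to 0.05, adjusted p = 0.280) and -0.12 for *Lhx1* (SE 0.08, 95% interval -0.30 to 0.06, adjusted p = 0.288). Without *Mov10* Deletion replicate 3, *Lhx5* passed as lower at -0.20 (adjusted p = 0.0269) and *Lhx1* stood at -0.21 (adjusted p = 0.0504). Without *Mov10* Deletion replicate 1 the values were -0.02 and -0.04.

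*Ebf3* (ENSMUSG00000010476.17, chr7:136795402-136916218, minus strand), a helix-loop-helix factor of the early B cell factor family, read 27.4, 30.3 and 35.0 CPM in *Mov10* Deletion and 32.4, 31.1 and 34.3 CPM in WT. Its difference was -0.05 (SE 0.07, 95% interval -0.22 to 0.11, adjusted p = 0.618), and 0.02 without *Mov10* Deletion replicate 1. *Nhlh2* (ENSMUSG00000048540.9, chr3:101917392-101922808, plus strand), a basic helix-loop-helix factor of developing neurons, read 99.9, 100.1 and 111.7 CPM in *Mov10* Deletion and 110.7, 96.6 and 108.6 CPM in WT. The values of *Nhlh2* were interleaved between the groups, with a difference of -0.02 (SE 0.07, 95% interval -0.17 to 0.14, adjusted p = 0.889). Without *Mov10* Deletion replicate 1 the *Nhlh2* difference was 0.02. *Nhlh2* lies 2.78 Mb from *Mov10* on chromosome 3, close enough to be inherited with the targeted alleles.

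*Calb2* (ENSMUSG00000003657.11, chr8:110864128-110894881, minus strand) encodes calretinin, a cytoplasmic calcium-binding protein. Its level was 158.7, 165.3 and 177.4 CPM in *Mov10* Deletion and 150.4, 143.1 and 153.1 CPM in WT. Every *Mov10* Deletion library was above every WT library, and the means were 167 ± 9.47 and 149 ± 5.16 CPM (SD, n = 3). *Calb2* rose 1.13-fold, or 0.18 on the log2 scale (SE 0.05, 95% interval 0.07 to 0.29, limma, adjusted p = 0.0289, and 0.0438 without the factors). The estimate stayed between 0.14 and 0.21 under 19 alternatives and passed in 16, with adjusted p from 0.000932 to 0.130. The call was lost with a sex score, computed from Y-linked genes and *Xist*, in place of the factors (adjusted p = 0.130), with no filter on low counts (0.0768) and without WT replicate 2 (0.102), and it was 0.21 (adjusted p = 0.00202) without *Mov10* Deletion replicate 1.

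*Ndnf* (ENSMUSG00000049001.7, chr6:65648574-65689310, plus strand) encodes a secreted neurotrophic protein. Its level was 230.0, 240.2 and 258.5 CPM in *Mov10* Deletion and 248.8, 221.3 and 213.7 CPM in WT, so that the groups overlapped through WT replicate 1. The difference was 0.06 (SE 0.05, 95% interval -0.05 to 0.17, adjusted p = 0.384), it passed without WT replicate 1 (0.17, adjusted p = 0.0250), and it was 0.10 (adjusted p = 0.0775) without *Mov10* Deletion replicate 1. The direction of *Ndnf* depended on the scale. Per transcript length the means were 62.9 ± 7.47 TPM in *Mov10* Deletion and 69.6 ± 8.24 TPM in WT, and with counts rebuilt from TPM the fitted difference was -0.19 (adjusted p = 0.0502). *Ndnf* lies 19.5 Mb from *Emx1*, the site of the Cre insertion, on chromosome 6.

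In 8 of 8 genes, *Mov10* Deletion replicate 1 had the lowest and replicate 3 the highest CPM of the 3 *Mov10* Deletion libraries, an order that 18.7% of all genes tested shared. Replicate 1 of *Mov10* Deletion was the lowest of all 6 libraries in 5 of the 8 genes (20% of all genes tested), and replicate 3 the highest of the 6 in 5 of the 8 (17.6% of all genes). Relative to the WT mean, replicate 1 stood at 78.5% for *Lhx1*, 81.7% for *Reln*, 82.3% for *Lhx5*, 84.0% for *Ebf3* and 88.0% for *Trp73*. *Nhlh2* was at 94.9% there, *Ndnf* at 100.9% and *Calb2* at 106.6%. In that library the reelin gene and 4 of the 5 transcription factors were thus at 88.0% of the WT mean or below, and the other 3 genes were at 94.9% or above. Summed over the 8 genes, *Mov10* Deletion replicates 1, 2 and 3 read 2166, 2458 and 2679 CPM, against 2472 to 2618 CPM in WT. Most of that sum was *Reln* alone, at 1548, 1807 and 1968 CPM against 1807 to 1988 CPM in WT. Replicate 1 is also the library with the high choroid plexus and meningeal marker sums, and the part of those tissues in these values was not tested.

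**Figure D2:**
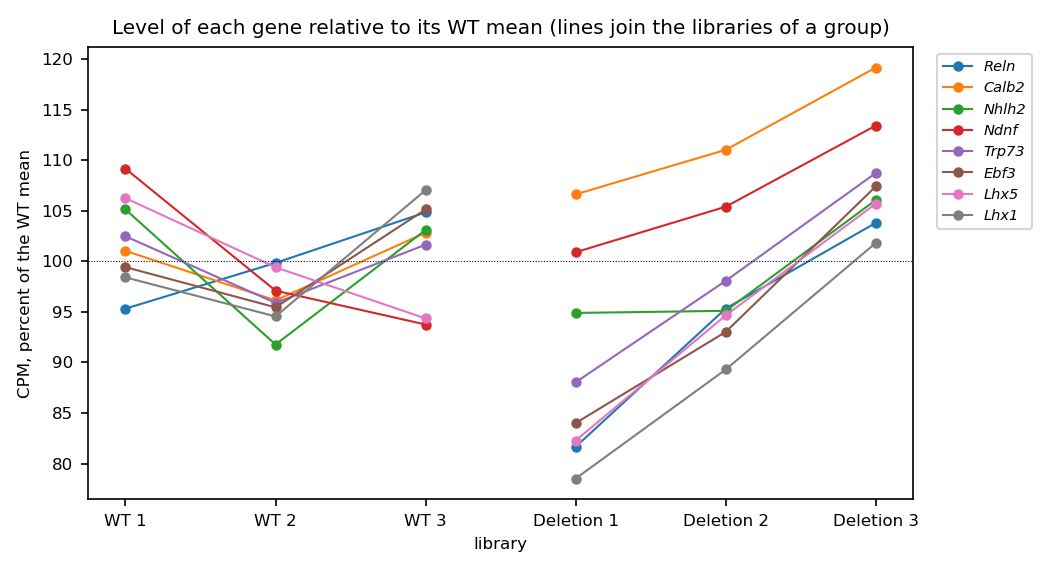
CPM of each of the 8 genes as a percentage of its WT mean (y axis) in the 6 libraries (x axis); lines join the libraries of a group to let a gene be followed, and the numbering of replicates carries no order. In *Mov10* Deletion replicate 1, 5 genes lie between 78.5% and 88.0%, and *Calb2* and *Ndnf* are the 2 genes above 100% in all 3 *Mov10* Deletion libraries.

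Salmon assigns counts to single transcripts, so the forms of *Reln* and *Trp73* that differ in their protein could be compared. Full-length *Reln* exists with and without a 6-base microexon near the 3′ end of the coding region, at chr5:22096560-22096565 on the minus strand of GRCm39, which is known to be used in neurons and skipped in other tissues. Reln-207 has 65 exons with the microexon as exon 64 and a coding length of 10383 bases, and Reln-201 has 64 exons and 10377 coding bases. The sequences around this junction are shown because they are the whole difference between both transcripts. They were read from the GENCODE transcripts with 12 bases on each side, and the capitals mark the microexon.
Reln-207: ggaggtcgtcctAGTAAGcactcgcaaaca
Reln-201: ggaggtcgtcctcactcgcaaaca
The form with the microexon was the main one, at 250.5, 287.6 and 320.0 TPM in *Mov10* Deletion and 295.3, 301.9 and 307.6 TPM in WT, with overlapping groups. The form without it was scarce, at 2.44, 2.92 and 4.59 TPM in *Mov10* Deletion and 6.22, 7.85 and 7.34 TPM in WT, and here the groups did not overlap.

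As a share of both forms, Reln-201 made up 0.965%, 1.01% and 1.41% in *Mov10* Deletion and 2.06%, 2.53% and 2.33% in WT. The means were 1.13% ± 0.247 and 2.31% ± 0.236 (SD, n = 3), a 2.05-fold higher share in WT with p = 0.1 in a two-sided exact permutation test, the smallest value that 3 against 3 libraries allow. In the model of transcript usage across all genes (limma diffSplice), Reln-201 had a usage difference of -1.08 on the log2 scale (adjusted p = 0.221), between -1.36 and -1.05 when each library was left out. The transcript passed without *Mov10* Deletion replicate 3 (adjusted p = 0.0189) or WT replicate 3 (0.0220). The share was picked out after the values of the transcripts had been seen. As estimated counts the form rested on 1138, 1308 and 1860 in *Mov10* Deletion and 3028, 3429 and 3358 in WT, which Salmon divides between nearly identical transcripts on the reads that cross this junction.

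The 2 promoters of *Trp73* give p73 with or without its transactivation domain, and the shorter form, called ΔN, is the main one of Cajal-Retzius cells, while the longer one is known from multiciliated cells such as those of ependyma and choroid plexus. Trp73-205 starts at the internal promoter (position 154181630 on chromosome 4) and has 12 exons, and Trp73-204 and Trp73-208 start upstream, at position 154224665. The first bases of the 2 reading frames, which give the proteins their different N termini, were read from the same transcripts, with the start codon in capitals. Trp73-205 begins at chr4:154181360-154181389 and Trp73-208 at chr4:154189323-154189352, both on the minus strand of GRCm39.
Trp73-205: ATGctttacgtcggtgaccccatgagacac
Trp73-208: ATGagcggcagcgttggggagatggcccag
The internal start was the main source of *Trp73* RNA in every library, with Trp73-205 at 67.4%, 71.5% and 70.6% of *Trp73* TPM in *Mov10* Deletion and 72.5%, 75.4% and 71.04% in WT.

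The Trp73-205 share averaged 69.8% ± 2.18 for *Mov10* Deletion and 72.98% ± 2.23 for WT (SD, n = 3; two-sided exact permutation test, p = 0.2). The upstream start took 27.1% ± 2.19 and 24.9% ± 3.23 (p = 0.5 in the same exact test), and its level was 8.46 ± 0.42 TPM and 7.82 ± 1.202 TPM. Both shares overlapped between the groups. The upstream transcripts were not split stably between libraries: Trp73-208 was given 136, 999 and 262 estimated counts in *Mov10* Deletion and 0, 142 and 387 in WT.

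*Ndnf* has a short retained-intron transcript, Ndnf-202, beside the coding transcript Ndnf-201. Ndnf-201 was at 56.2, 58.1 and 64.8 TPM in *Mov10* Deletion and 62.6, 55.3 and 51.7 TPM in WT. Ndnf-202 was listed at 0, 3.29 and 6.17 TPM in *Mov10* Deletion and at 15.4, 13.9 and 9.85 TPM in WT, from 0, 40.4 and 68.7 and from 202.1, 155 and 118 estimated counts. The groups did not overlap for Ndnf-202, and Ndnf-201 alone averaged 59.7 TPM for *Mov10* Deletion and 56.5 TPM for WT, in the direction of the CPM values, so that Ndnf-202 sets the direction of the summed TPM. The usage difference of Ndnf-202 was -2.99 on the log2 scale and did not pass (limma diffSplice, adjusted p = 0.164). It passed without *Mov10* Deletion replicate 1 (-1.61, adjusted p = 0.0414) and without WT replicate 3 (-3.12, adjusted p = 0.00971). Of the other genes, *Ebf3* divided most of its TPM between 2 coding transcripts, of which Ebf3-203 was at 6.42, 5.41 and 6.35 TPM in *Mov10* Deletion and 7.58, 8.14 and 7.28 TPM in WT. Those groups did not overlap, and the usage difference of -0.82 did not pass (adjusted p = 0.286).

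Reln-205, a partial transcript from the 3′ part of the gene with no defined coding region, was at 86.8, 78.8 and 82.8 TPM in *Mov10* Deletion and 93.9, 79.7 and 83.2 TPM in WT. Nearly all *Calb2* was Calb2-201, at 238.1, 239.6 and 265.5 TPM in *Mov10* Deletion and 227.8, 212.4 and 219.9 TPM in WT, and its groups were separate as in the gene total. *Nhlh2* came mainly from Nhlh2-202, at 75.9 to 88.6 TPM in *Mov10* Deletion and 73.9 to 88.0 TPM in WT.

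Of the 6 genes with more than 1 transcript to compare, 0 passed the usage test of limma diffSplice over all genes, where 7.36% of 10338 genes passed. The adjusted p was 0.0885 for *Trp73*, 0.0940 for *Ndnf*, 0.163 for *Reln*, 0.182 for *Ebf3*, 0.691 for *Calb2* and 0.756 for *Nhlh2*. For *Trp73* the smallest transcript p was that of Trp73-208, whose counts were not split stably between libraries. Without the factors 0 of the 6 passed, with adjusted p from 0.0789 for *Reln* to 0.613 for *Calb2*. Between 0 and 2 of the 6 passed when each library was left out: *Reln* without *Mov10* Deletion replicate 3 (0.0330), WT replicate 1 (0.0309) or WT replicate 3 (0.0424), and *Ndnf* without *Mov10* Deletion replicate 1 (0.0239), *Mov10* Deletion replicate 3 (0.0475) or WT replicate 3 (0.00530). In the fit on all 6 libraries, the smallest transcript p of *Reln* in diffSplice was that of Reln-209 (0.00396), and Reln-201 had 0.0212. Reln-209 is a retained-intron transcript at 0.014 to 0.133 TPM in *Mov10* Deletion and 0.107 to 0.233 TPM in WT. The gene-level p of *Reln* thus does not stand for the microexon form. *Lhx1* and *Lhx5* had a single transcript past the filter and could not be tested.

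**Figure D3:**
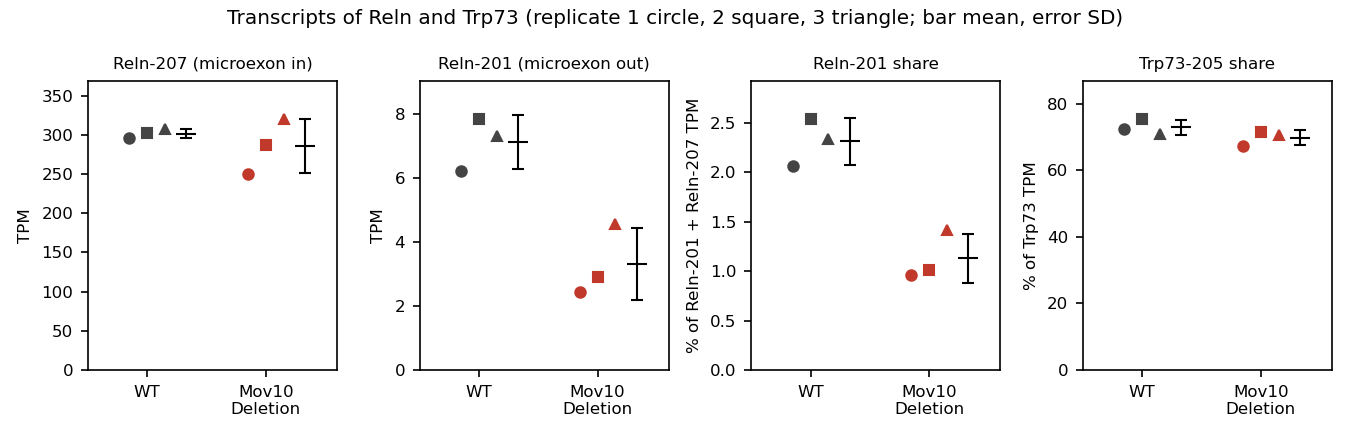
From left to right, TPM of Reln-207 and Reln-201, the Reln-201 share of both in percent, and the Trp73-205 share of *Trp73* TPM in percent, in each library (circle, square and triangle are replicates 1, 2 and 3) with mean and SD, n = 3 per group, all y axes from 0. The Reln-201 share lies between 0.965% and 1.41% in *Mov10* Deletion and between 2.06% and 2.53% in WT, Reln-201 is at 2.44 to 4.59 TPM and 6.22 to 7.85 TPM, and the groups overlap for Reln-207 and the Trp73-205 share.

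Among 12 further genes known from Cajal-Retzius cells, 0 passed as higher and 1 as lower, beside 12.6% and 12.1% of all genes tested. The median difference of the 12 was -0.13 on the log2 scale. The one call was *Cxcr4* (ENSMUSG00000045382.8), the receptor of CXCL12, which holds Cajal-Retzius cells beneath the meninges. The RNA is from whole hippocampus, and the part of Cajal-Retzius cells in the *Cxcr4* value was not tested. *Cxcr4* read 113.7, 86.7 and 106.5 CPM in *Mov10* Deletion and 126.7, 119.3 and 119.0 CPM in WT, with no overlap, and fell by 0.29 on the log2 scale (SE 0.06, limma, adjusted p = 0.0174). Without the factors its adjusted p was 0.0571. The meningeal gene of its ligand, *Cxcl12*, rose by 0.22 (SE 0.05, adjusted p = 0.0188, and 0.0655 without the factors; 0.09 with adjusted p = 0.389 with a sex score in their place), at 100.1, 77.5 and 87.0 CPM in *Mov10* Deletion against 76.4, 71.9 and 75.9 CPM in WT, highest in the library with the high meningeal marker sum. The summed level of the 12 genes was 439, 401 and 471 CPM in *Mov10* Deletion and 460 to 473 CPM in WT, and the highest estimate was 0.21 for *Cacna2d2* (adjusted p = 0.0671), a calcium channel subunit gene.

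**Figure D4:**
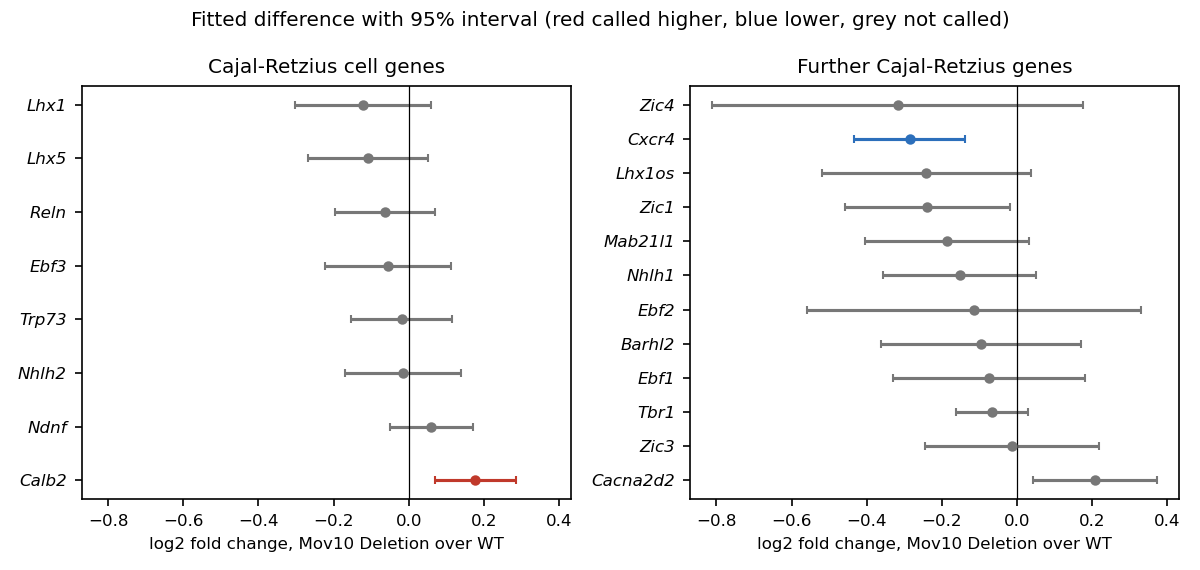
Fitted log2 difference between *Mov10* Deletion and WT (x axis, positive where *Mov10* Deletion is higher) with its 95% interval for the 8 Cajal-Retzius cell genes (left) and 12 further Cajal-Retzius genes (right), n = 3 per group; red marks a gene called higher, blue one called lower and grey one not called. *Calb2* at 0.18 and *Cxcr4* at -0.29 are the genes called, and the intervals of the other 7 genes on the left include 0; *Cacna2d2* and *Zic1* on the right have intervals beside 0 but did not pass after adjustment.

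The receptors of reelin stood at levels that overlapped between the groups. *Vldlr* read 93.2, 93.7 and 99.0 CPM in *Mov10* Deletion and 99.2, 95.5 and 107.7 CPM in WT (difference -0.05, SE 0.05, adjusted p = 0.435), and *Lrp8* read 473.9, 516.0 and 547.6 CPM against 503.1, 476.1 and 518.2 CPM (0.05, SE 0.05, adjusted p = 0.428). Inside the receiving cell, *Dab1* was lower in each *Mov10* Deletion library, at 196.6, 201.8 and 202.4 CPM against 217.7, 222.3 and 233.3 CPM. *Dab1* fell by 0.14 on the log2 scale (SE 0.03, adjusted p = 0.0189), and its call was lost with a sex score in place of the factors (0.108), with no filter on low counts (0.0615) and without WT replicate 2 (0.112).

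Of the 22 genes of the receptors and the intracellular pathway, 8 passed as lower and 0 as higher, beside 12.1% and 12.6% of all genes, and their median difference was -0.10. Beside *Dab1* these were, named after their values were seen, the SRC-family kinase *Fyn* (-0.20, SE 0.04, adjusted p = 0.0101) and the adhesion gene *Cdh2* for N-cadherin (-0.21, SE 0.03, adjusted p = 0.00627). The others were the adaptors *Crk* (-0.19) and *Nck2* (-0.17), the exchange factor *Rapgef1* (-0.14), the ubiquitin ligase subunit *Socs7* (-0.16) and *Pafah1b2* (-0.14), a subunit of the complex that binds LIS1. Summed over the 22 genes the level was 3964 to 4133 CPM in *Mov10* Deletion and 4305 to 4507 CPM in WT. The count was 7 without the factors, 1 with a sex score in their place, 1 with no filter on low counts and 4 without WT replicate 2. Many of these genes work in most neurons and in several pathways, and the list is not specific to reelin.

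Proteases cut reelin outside the cell and limit its action. *Adamts3*, the main reelin-cleaving protease, read 38.5, 37.5 and 39.2 CPM in *Mov10* Deletion and 38.3, 36.0 and 39.7 CPM in WT, with a difference of 0.03 (SE 0.05, adjusted p = 0.713). *Adamts2*, which also cleaves reelin, rose by 0.38 (SE 0.08, adjusted p = 0.0113), from 10.6 ± 1.34 to 13.1 ± 1.18 CPM. *Plat*, the tissue plasminogen activator, fell by 0.28 (SE 0.05, adjusted p = 0.00824), from 45.7 ± 2.60 to 38.4 ± 4.82 CPM. The calls of *Adamts2* and *Plat* were lost without the factors (adjusted p = 0.0575 and 0.0536) and with no filter on low counts (0.128 and 0.0566), and that of *Adamts2* also without WT replicate 1 (0.0728).

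Genes of the cortical hem, where many Cajal-Retzius cells are born, were mostly lower in *Mov10* Deletion. Of 15 hem genes 14 were tested, *Gdf7* being too low. As lower 11 passed and as higher 0, beside 12.1% and 12.6% of all genes tested. The median of the hem genes was -0.54 on the log2 scale, beside -0.04 for the 8 genes. In 9 hem genes the groups did not overlap, all with *Mov10* Deletion lower (21.2% of all genes tested). *Bmp6* and *Bmp7* were called lower with overlapping groups, and their adjusted p without the factors was 0.484 and 0.233. *Rspo1*, an enhancer of WNT signalling, read 3.47, 2.10 and 2.34 CPM in *Mov10* Deletion and 4.67, 5.32 and 4.93 CPM in WT and fell by 0.96 (SE 0.10, adjusted p = 0.00150). *Wnt8b* read 8.24, 5.21 and 6.57 CPM against 11.7, 13.5 and 10.3 CPM and fell by 0.90 (SE 0.10, adjusted p = 0.00182). Both calls held in 19 of 19 alternatives, and 8 hem genes passed as lower without the factors.

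The summed level of the hem genes was 236.6, 198.6 and 216.8 CPM in *Mov10* Deletion and 263.6 to 270.4 CPM in WT. Most of that sum was *Emx2* and *Wnt5a*, each with a log2 difference of -0.19. *Emx2* was at 94.3 to 96.8 CPM against 105.4 to 115.8 CPM in WT, and *Wnt5a* at 53.1 to 63.5 CPM against 64.4 to 68.5 CPM. Several of the hem genes, such as *Lmx1a*, *Msx1* and *Bmp7*, are also used by the choroid plexus, which borders the hem. The choroid plexus marker sum was 58.5, 8.33 and 11.2 CPM in *Mov10* Deletion and 13.2 to 22.6 CPM in WT, and 12 hem genes passed as lower without *Mov10* Deletion replicate 1. The sum of 12 diencephalon and thalamus markers was 165.4 to 178.0 CPM in *Mov10* Deletion and 178.9 to 190.1 CPM in WT, with 0 called of 9 tested. The part of the dissection in the hem values was not tested.

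**Figure D5:**
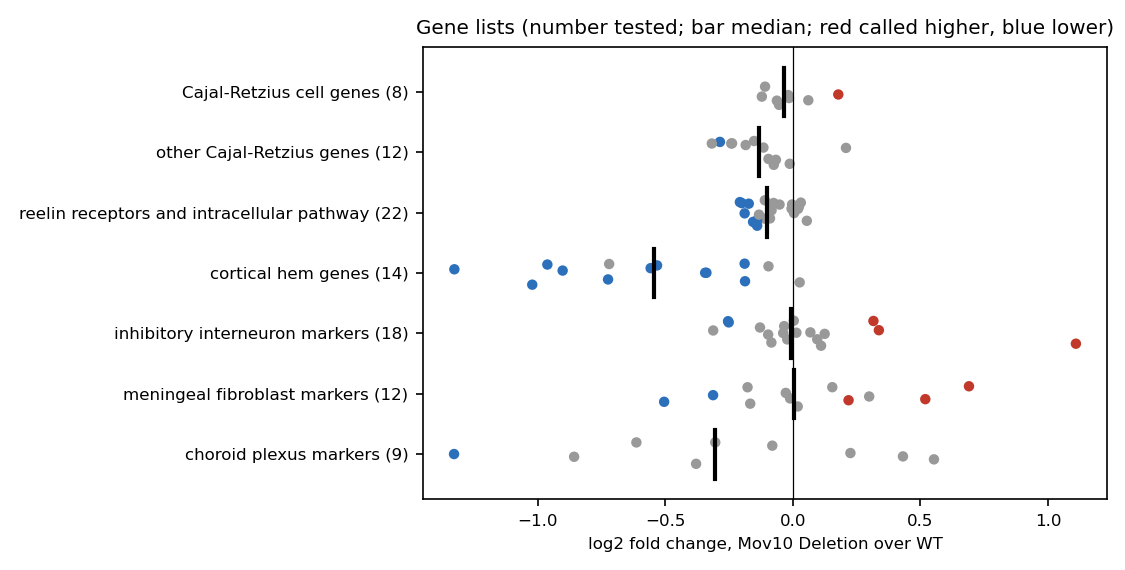
Fitted log2 difference between *Mov10* Deletion and WT (x axis, positive where *Mov10* Deletion is higher) for each tested gene (points) of the lists named on the y axis, with the number tested in parentheses and the median as a black bar, n = 3 libraries per group; red marks genes called higher, blue genes called lower and grey genes not called. The 8 Cajal-Retzius cell genes lie between -0.12 and 0.18 around a median of -0.04, and the hem genes have a median of -0.54 with 11 of 14 called lower.

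Other cells that can express *Reln*, *Ndnf* or *Calb2* showed mixed values. Of 18 inhibitory interneuron markers, 3 passed as higher and 2 as lower with a median of -0.01, beside 12.6% and 12.1% of all genes tested. *Adarb2*, a marker of interneurons from the caudal ganglionic eminence, rose by 0.34 (SE 0.05, adjusted p = 0.00559, and 0.0617 with no filter on low counts). Further genes found in interneurons of that origin, named after their values were seen, went both ways. *Htr3a* fell by 0.25 (SE 0.08, adjusted p = 0.0490), and *Sp8* and *Nr2f2* were at -0.31 and -0.03 and did not pass (adjusted p = 0.0634 and 0.622). *Vip* rose by 1.11 (SE 0.29, adjusted p = 0.0288) but was scarce, at 0.364 to 0.514 CPM in *Mov10* Deletion and 0.146 to 0.209 CPM in WT. *Lamp5* was at 0.11 and did not pass (adjusted p = 0.536). The other gene called higher was *Sst* (0.32, SE 0.06, adjusted p = 0.00765, and 0.0970 without the factors), with overlapping groups. *Dlx1*, a factor of interneuron precursors, fell by 0.25 (SE 0.04, adjusted p = 0.00706, and 0.147 with a sex score in place of the factors). When each library was left out 2 to 4 of the 18 passed as higher and 1 (without WT replicate 2) to 4 (without *Mov10* Deletion replicate 3) as lower. The pan-interneuron genes *Gad1* and *Gad2* were at 0.10 and 0.12 and did not pass (adjusted p = 0.120 and 0.121). The interneuron sum was 582.5 to 691.2 CPM in *Mov10* Deletion and 641.2 to 672.4 CPM in WT.

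Of 12 markers of hippocampal excitatory neurons, 2 passed as higher and 0 as lower, beside 12.6% and 12.1% of all genes tested. *Nrgn* rose by 0.56 (SE 0.07, adjusted p = 0.00253) and *Zbtb20* by 0.28 (SE 0.07, adjusted p = 0.0222, and 0.113 with a sex score in place of the factors, where 1 marker passed as higher). The median of the 12 was 0.02, and 3 passed as higher without WT replicate 2 and 4 without each of the other libraries, with 0 to 2 lower. Their sum was 3876 to 4112 CPM in *Mov10* Deletion and 3621 to 3700 CPM in WT, without overlap, and most of that gap was *Zbtb20*, at 1602 ± 149 against 1326 ± 26.5 CPM. Without it the sums overlapped, at 2342 to 2390 CPM and 2307 to 2360 CPM, a sum taken after the values were seen. *Prox1*, the granule cell factor, was at 0.17 (adjusted p = 0.193). The part of interneurons or of granule cells in the *Calb2* difference was not tested. Of 8 endothelial markers 1 passed as lower, *Cldn5* (-0.39, SE 0.04), with 3 lower without *Mov10* Deletion replicate 1, and their sum overlapped between the groups, at 206.8 to 256.3 CPM and 233.4 to 248.8 CPM. Of 9 choroid plexus markers tested 1 passed as lower (*Ttr*, adjusted p = 0.619 without the factors, at 45.6, 0.786 and 3.75 CPM in *Mov10* Deletion and 13.4, 11.6 and 5.10 CPM in WT), and of 12 meningeal markers 3 passed as higher and 2 as lower, where 0 passed without the factors. Single libraries turned these counts. Without *Mov10* Deletion replicate 1, 1 meningeal marker passed as higher and 7 as lower, and 4 choroid plexus markers as lower. Without *Mov10* Deletion replicate 2, 8 meningeal markers passed as higher and 0 as lower, and 0 choroid plexus markers as lower.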

How the data were processed

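The authors made stranded, poly(A)-selected TruSeq libraries from P0 hippocampi, sequenced them on a NovaSeq and quantified each with Salmon 1.4.0 by selective alignment against a decoy-aware GRCm39 transcriptome. The sources used here do not name the annotation release. The deposited tables hold estimated counts, TPM and an effective length for each of 139225 transcripts. Of these, 137570 matched GENCODE M39 by identifier, and 0.589% to 0.600% of the counts in a library did not match. Estimated counts were summed to 52230 genes. The 16745 genes that reached 0.25 CPM in 3 or more libraries (99.95% of counts) were normalized with TMM (edgeR 4.0.16) and tested in limma 3.58.1 with trend on log2 CPM (prior count 2) and 2 RUVs factors that were estimated from all genes, which left 2 residual degrees of freedom. Variances in this fit were moderated across genes with 5.888 prior degrees of freedom. Its SEs, intervals and p-values measure the spread left after the factors. Adjusted p is Benjamini-Hochberg at 0.05. Intervals are 95%. Transcript usage was tested with diffSplice in the same design, and counts were rounded for edgeR and DESeq2 (1.42.0). The steps were tested on simulated data. TPM, which is relative to transcript length, served to compare levels between genes. Levels of named genes are CPM after TMM, per library.

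The 8 genes, the 10 other lists, and the tests were chosen with earlier results of these data known. Named genes are the 8, *Mov10*, *Emx1*, *Vldlr*, *Lrp8*, *Dab1*, *Adamts3*, the 2 called genes of smallest p in each other list, and the 5 genes most like *Reln* over the libraries, of which 3 are reported; some genes and the list of reelin proteases and inhibitors as a whole are not reported here, and any other gene was named after its values were seen.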

Additional observations from a re-analysis of the deposited data

How the results depend on the processing

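In 152 refits of the 8 genes, 135 kept direction and call, 11 changed sign without a call, 3 lost and 3 gained a call. *Calb2* kept its direction in all 19 alternatives and lost its call in the 3 named in the report. Signs changed for *Ndnf* with counts from TPM (-0.19) and, with upper-quartile factors, for *Trp73* (0.0041), *Nhlh2* (0.0065) and *Sec16a* (0.0100, and 0.055 with counts from TPM). *Adamts3* was -0.0025 with a sex score in place of the factors. *Ttr* and *Aldh1a2* were called lower in the main fit, at -1.33 and -0.50. Without factors edgeR and DESeq2 gave 0.74 and 0.73 for *Ttr* and 0.19 and 0.18 for *Aldh1a2*. When each library was left out, the log2 difference ranged from -0.13 to 0.020 for *Reln*, -0.092 to 0.054 for *Trp73*, -0.14 to 0.024 for *Ebf3*, -0.074 to 0.031 for *Nhlh2*, -0.011 to 0.051 for *Adamts3*, -0.24 to 0.024 for *Rmst*, -0.048 to 0.011 for *Txndc11* and -0.036 to 0.015 for *Sec16a*, and the usage difference from -0.11 to 0.15 for Reln-207, -2.46 to 0.18 for Trp73-205 and -3.13 to 0.090 for Trp73-204. Genes called higher and lower, 2104 and 2033, became 769 and 597 with the sex score and 462 and 494 with no filter, and ranged from 1656 to 2809 and from 1147 (without WT replicate 2) to 2988 when each library was left out. With the sex score or no filter 0 of the 8 genes passed as higher, and 0 to 2 did, with 0 to 2 lower and 0 to 2 for usage, when each library was left out. Of the further Cajal-Retzius genes, 0 were called lower without factors and by edgeR without factors, and 2 with the sex score; 1 was called higher with 1 factor, in DESeq2 and with a 1 CPM filter; leaving out each library gave 0 to 1 higher and 1 to 4 lower. The reelin pathway had 1 gene lower with the sex score and 1 with no filter (4 to 11 when each library was left out), and the hem genes 7 by edgeR without factors and 5 with no filter (9 to 12). The cause of these changes was not tested. Each left-out fit kept the 2 factors on fewer libraries, which leaves fewer residual degrees of freedom. All of them except the fit without WT replicate 2 called more genes in both directions than the main fit.

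The labels do not say whether same-numbered libraries were paired. Deviations from the group means correlated at 0.01, -0.07 and 0.04 between same-numbered libraries, which cannot show that a shared litter or preparation was absent. With a replicate block and without factors, *Calb2* passed (adjusted p = 0.0393) and no other of the 8 genes did, and 1857 genes were called higher and 1568 lower. With 3 libraries a group and 2 residual degrees of freedom, the 95% intervals of 7 of the 8 genes include 0, and the lowest bound, that of *Lhx1*, is -0.30.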

Other observations

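The genes whose log2 CPM followed *Reln* most closely over the 6 libraries, by Pearson r among 14425 genes with at least 1 CPM on average, were *Rmst* (0.992), *Txndc11* (0.991) and *Sec16a* (0.988), and 162 genes had a value above 0.9. This is a description of 6 libraries that share depth, dissection and the low *Reln* value of *Mov10* Deletion replicate 1. None of these 3 passed the test between the groups. *Rmst*, a long noncoding RNA, averaged 6.31 CPM over *Mov10* Deletion libraries and 7.06 CPM over WT (log2 difference -0.11, adjusted p = 0.497).

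*Emx1*, whose locus carries Cre in *Mov10* Deletion, was at 47.6, 53.9 and 54.6 CPM in *Mov10* Deletion and 56.4, 55.4 and 62.3 CPM in WT, with no overlap, and did not pass (log2 difference -0.12, SE 0.04, limma, adjusted p = 0.0721), but passed without *Mov10* Deletion replicate 2 (0.0224), *Mov10* Deletion replicate 3 (0.0369) or WT replicate 1 (0.0484). Reln-213, Reln-214 and Reln-203, short retained-intron transcripts of *Reln*, were at 7.39, 6.59 and 14.8 TPM, 9.65, 10.4 and 17.2 TPM and 11.8, 3.75 and 10.2 TPM in *Mov10* Deletion, against 3.73, 6.65 and 4.81 TPM, 8.12, 7.72 and 9.12 TPM and 3.60, 4.11 and 4.71 TPM in WT. Of these, Reln-214 had groups that did not overlap, and none passed the usage test (adjusted p = 0.188, 0.382 and 0.169). Other minor forms went the other way. Reln-208 was at 0.688, 2.11 and 1.80 TPM in *Mov10* Deletion and 2.61, 2.86 and 4.71 TPM in WT (usage test, adjusted p = 0.267). Reln-209 had a usage difference of -1.41 (adjusted p = 0.0913, and 0.0459 without the factors).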
